A study of Mus musculus with 8 samples.

Results

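The receptor genes for activins, bone morphogenetic proteins (BMPs) and transforming growth factor beta (TGF-beta) were described in ribosome-bound RNA of AgRP neurons. They were also described in RNA of the whole tissue that holds these neurons. The set was defined by name as 10 genes of the 45706 in the table, and all 10 were found once and passed the filter on low counts. They comprise 6 type I receptor genes (Acvr1, Acvr1b, Acvr1c, Bmpr1a, Bmpr1b and Tgfbr1) and 4 type II receptor genes (Acvr2a, Acvr2b, Bmpr2 and Tgfbr2). The set was proposed with the contrast between the 2 fractions already known. The values of the 10 genes in that contrast are therefore given as a description, with no test.

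Ligands of this family are secreted dimers that bring together type I and type II receptors, both of which are serine/threonine kinases. The type II receptor phosphorylates the type I receptor, which in turn phosphorylates receptor-regulated SMAD proteins that enter the nucleus with Smad4 and act on transcription. Acvr1b, Acvr1c and Tgfbr1 signal mainly through Smad2 and Smad3, whereas Acvr1, Bmpr1a and Bmpr1b signal mainly through Smad1, Smad5 and Smad9. AgRP neurons, found in the arcuate nucleus at the base of the hypothalamus, drive hunger.

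Translating ribosome affinity purification (TRAP) pulls ribosomes carrying a GFP-tagged RpL10a protein out of a homogenate with antibodies to GFP. The pulled-down RNA is the immunoprecipitate (IP), and the whole homogenate gave the input RNA. There were 4 IP and 4 Input libraries, and both groups carried Mfffl/fl, with AgRP-IRES-Cretg/wt as the Cre driver and RpL10a-GFPfl/wt as the tagged ribosome gene, so that Cre made in AgRP-expressing cells deletes Mff, the gene of mitochondrial fission factor, and switches on the tagged ribosome. Every library pooled dissected arcuate tissue of 3 mice of mixed genders, aged 11 to 12 weeks and killed in a random-fed state. The Mfffl/fl genotype is thus shared by all 8 libraries, and mice with intact Mff are not analysed here. The deletion itself is limited to cells that made Cre, so between IP and input it cannot be told apart from the cell type. Since the tag is switched on by recombination, a cell that made Cre only earlier in life can carry it too.

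IP libraries held 39.9 to 64.8 M estimated counts (M, mega) and Input libraries 44.1 to 74.6 M. Mff stood at 64.0 to 71.2 counts per M counts (CPM) in IP and at 112.2 to 131.9 CPM in input. The counts do not separate deleted from intact transcripts, so this does not check the deletion. All 10 AgRP neuron markers were higher in IP, where they summed to 3195 to 4842 CPM, against 108 to 129 CPM in input. The summed markers of every other cell type listed were lower in IP. Summed astrocyte markers (7 of 7 lower) reached 768 to 1026 CPM in IP and 2542 to 3171 CPM in input, and summed oligodendrocyte markers (7 of 7 lower) 541 to 792 CPM in IP and 1890 to 2394 CPM in input. Precursors of oligodendrocytes (4 of 4 lower) summed to 28.5 to 47.1 CPM in IP and 116 to 136 CPM in input, microglia (5 of 6 lower) to 10.4 to 13.0 CPM in IP and 40.1 to 48.2 CPM in input, and endothelial and mural cells (2 of 6 lower) to 10.3 to 29.0 CPM in IP and 33.3 to 40.1 CPM in input. Tanycytes and ependyma (4 of 5 lower) summed to 10.5 to 15.7 CPM in IP and 34.7 to 43.8 CPM in input, and other arcuate neurons (5 of 7 lower) to 78.6 to 109 CPM in IP and 155 to 178 CPM in input. Kiss1, in IP replicate 3, was the only marker at 0 in an IP library. Rn18s-rs5, a ribosomal RNA gene, and the RNA gene Yam1 together took 23.7% to 27.6% of counts in IP and 9.32% to 12.2% in input. IP replicate 3 stood apart from the other IP libraries, with 11.3% of counts from Rn18s-rs5 against 20.0% to 23.8%, and 12.4% from Yam1 against 3.77% to 5.92%. Over all genes tested, its counts differed from those of the other IP libraries by a chi-square per degree of freedom of 222.5 to 329.1. That value was 47.1 to 60.2 among the others and 18.5 to 64.95 among inputs. Abundant genes weigh most in this sum, so it takes in the Rn18s-rs5 and Yam1 counts and is no separate measure of the other genes. Values without IP replicate 3 are given below for Acvr1c, Acvr1b, Bmpr1a, Tgfbr2 and some other genes of the pathway.

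Start sites of the receptor genes were compared by their sequence. RefSeq (GRCm38.p6) lists 14 starts for the 10 genes, and the 250 bases before each start were searched on both strands for GGGCGG, known as a GC box, with overlapping matches counted. GGGCGG was present in 8 of the 14 windows, those of 8 genes, and in 32.7% of all 32851 listed promoters. The windows of Bmpr1b and Tgfbr2 held no match, and neither did a further start listed for Acvr1c and for Tgfbr1. All 3 Bmpr1b windows lie inside the gene as GENCODE M21 places it. The bases before its outermost end there, at 142169425, were not searched, so nothing is said about a promoter at that end. The number of CpG dinucleotides was 22 to 49 in the matching windows, 1 to 5 at the 3 starts of Bmpr1b and 12 at Tgfbr2. It was 2 at the further start of Acvr1c and 3 at that of Tgfbr1, against a median of 6 over all promoters. GGCGCC was found in 3 member windows (9.59% of all promoters), CAGACA in 2 (17.1%), TATAAA in 1, a start of Bmpr1b (12.4%), and TAATTA in 0 (4.84%). These matches describe letters and were not tested as binding sites. The genes with the highest and the 2 lowest log2 fold changes of the set are shown 5′ to 3′ on the minus strand, leaving out bases that GENCODE M21 places in an exon of the gene, with the GC box of either strand in capitals. The stretches are chr2:58357896-58358008 for Acvr1c, chr3:141982265-141982514 for Bmpr1b and chr9:116175364-116175613 for Tgfbr2. Further starts of Acvr1c and Bmpr1b are not shown.
Acvr1c: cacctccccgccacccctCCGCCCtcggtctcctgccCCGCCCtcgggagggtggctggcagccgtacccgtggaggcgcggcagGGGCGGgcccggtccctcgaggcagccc
Bmpr1b: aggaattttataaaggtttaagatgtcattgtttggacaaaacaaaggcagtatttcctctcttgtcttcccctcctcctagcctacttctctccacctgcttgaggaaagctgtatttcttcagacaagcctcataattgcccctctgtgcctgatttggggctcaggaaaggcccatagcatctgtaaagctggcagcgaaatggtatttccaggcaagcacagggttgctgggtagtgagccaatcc
Tgfbr2: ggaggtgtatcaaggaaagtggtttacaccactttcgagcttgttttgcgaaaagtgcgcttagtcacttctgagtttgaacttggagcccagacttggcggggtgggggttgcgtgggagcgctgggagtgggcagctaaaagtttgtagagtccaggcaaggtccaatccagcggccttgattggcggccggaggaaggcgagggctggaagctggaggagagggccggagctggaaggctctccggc

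Among type I receptor genes, Acvr1c was far more abundant in ribosome-bound RNA of AgRP neurons than in the tissue, Acvr1 was moderately more abundant, and Bmpr1a and Bmpr1b were less abundant. Acvr1b and Tgfbr1 lay at about the same level in both fractions. Among type II receptor genes, Bmpr2 and Acvr2a were carried at similar levels in both fractions, whereas Tgfbr2 was scarce in IP. Log2 fold changes are IP over input with their standard error (SE) from edgeR's fit over all genes, and n is 4 libraries per fraction throughout. The libraries of the fractions did not overlap for 6 of the 10 genes, 2 of them higher and 4 lower in IP. The same held for 48.1% of all 17000 genes tested, 24.1% higher and 24.0% lower, and nothing is read from the members' count because they were chosen on this contrast. The median log2 fold change was 0.13 over the 10 genes and -0.01 over all genes tested. CPM are shares of a library: fewer cells of a type and less RNA per cell cannot be told apart.

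**Figure D1:**
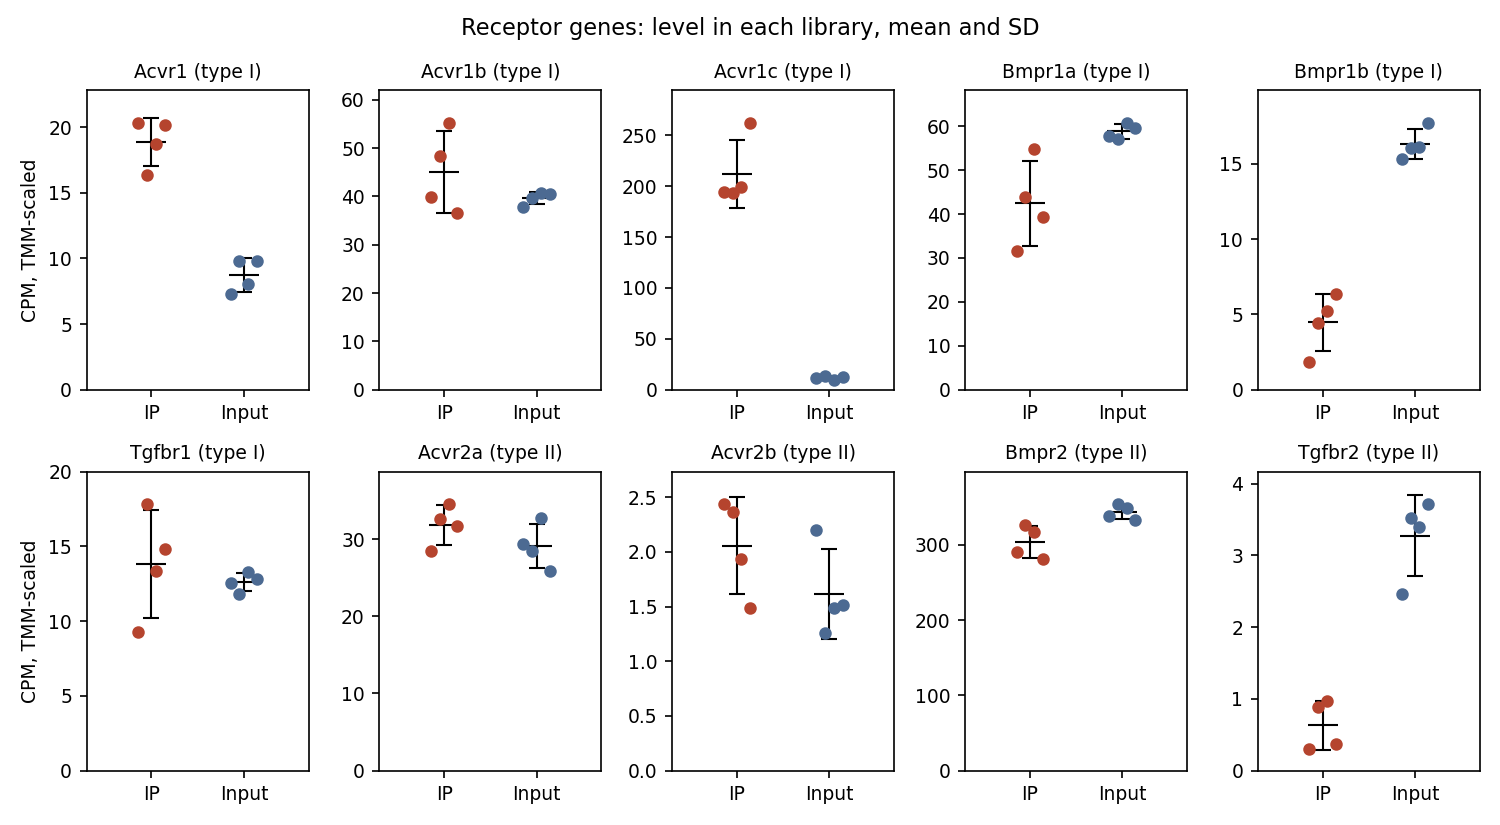
Level of each receptor gene in CPM (vertical axis, each panel with its own scale from 0) in the 4 IP and 4 Input libraries; dots are libraries, bars the mean and SD. Acvr1c at 194 to 263 CPM in IP lies far above 9.87 to 13.5 CPM in input, whereas Bmpr1b and Tgfbr2 lie lower in every IP library.

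Acvr1c encodes the activin receptor-like kinase ALK7, a type I receptor for activins, Nodal and growth differentiation factors that is known from fat tissue, endocrine cells and brain (ENSMUSG00000026834, chromosome 2, 58267453 to 58357895, minus strand, GRCm38). IP replicates 1 to 4 held 194.3, 193.7, 198.9 and 262.7 CPM of it, and Input replicates 1 to 4 held 11.8, 13.5, 9.87 and 12.6 CPM. The fractions were far apart, and IP replicate 4 was the highest of the 8 libraries. The same library had the highest summed AgRP neuron markers, 4842 CPM against 3195 to 3809 CPM in the other IP libraries. The part of the markers in this value was not tested. Acvr1c averaged 212 ± 33.6 CPM in IP and 12.0 ± 1.55 CPM in input (SD), a log2 fold change of 4.15 ± 0.14 (SE). This placed it at rank 36 of the 17000 log2 fold changes, counted from the highest. Leaving out IP replicate 4 gave 4.03, and leaving out IP replicate 3 gave 4.18. The value was 4.54 with offsets for transcript length and GC content. The antisense gene Gm13544, which overlaps Acvr1c, stood at 0 to 2.27 CPM in IP and 0.546 to 0.984 CPM in input. Counting by strand is not stated, so reads of the 2 genes cannot be told apart. Genes that overlap Acvr1, Bmpr1a and Bmpr2 reached at most 0.309 CPM in a library.

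Acvr1, Acvr1b and Tgfbr1 are type I receptor genes that were not lower in IP. Acvr1 encodes a type I receptor for BMPs and activins (ENSMUSG00000026836, chromosome 2, 58388644 to 58567157, minus strand). Its level was 20.3, 16.4, 18.7 and 20.1 CPM in IP and 7.28, 9.80, 8.06 and 9.80 CPM in input, with no overlap and a log2 fold change of 1.11 ± 0.15. Acvr1b encodes the main activin type I receptor, ALK4 (ENSMUSG00000000532, chromosome 15, 101174067 to 101213684, plus strand). Its level was 39.8, 48.4, 55.3 and 36.5 CPM in IP and 37.8, 39.6, 40.6 and 40.6 CPM in input. The IP libraries spread to both sides of the narrow input range, and the log2 fold change was 0.18 ± 0.12, or 0.07 without IP replicate 3. Tgfbr1 encodes the type I receptor for TGF-beta (ENSMUSG00000007613, chromosome 4, 47353222 to 47414931, plus strand). It stood at 9.25, 17.9, 13.3 and 14.9 CPM in IP and at 12.5, 11.8, 13.3 and 12.8 CPM in input. IP replicate 1 lay below every input library and the other IP libraries lay above them, with a log2 fold change of 0.13 ± 0.19. That value was -0.01 without IP replicate 2 and 0.29 without IP replicate 1, so its sign turned with the library left out.

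Bmpr1a and Bmpr1b, genes of type I receptors for BMPs, lay lower in IP, Bmpr1b by far more. Bmpr1a (ENSMUSG00000021796, chromosome 14, 34410734 to 34503341, minus strand) encodes a broadly expressed BMP receptor. It reached 31.5, 44.0, 54.8 and 39.4 CPM in IP, against 57.7, 57.2, 60.8 and 59.6 CPM in input. Every IP library was below every input library, though IP replicate 3 came close. The log2 fold change was -0.47 ± 0.14, or -0.62 without IP replicate 3 and -0.23 with length and GC offsets. Bmpr1b (ENSMUSG00000052430, chromosome 3, 141837136 to 142169425, minus strand) encodes a receptor that binds growth differentiation factor ligands as well. It reached 1.86, 4.41, 5.25 and 6.34 CPM in IP, against 15.3, 16.0, 16.1 and 17.7 CPM in input. The IP libraries were all low but differed widely among themselves, with replicate 1 the lowest, and the log2 fold change was -1.87 ± 0.30. It ranged from -2.08 without IP replicate 4 to -1.61 without IP replicate 1. Bmpr1a and Bmpr1b were lower in IP together with the summed astrocyte and oligodendrocyte markers given above, and the part of those cells in these values was not tested.

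The most abundant type II receptor genes, Bmpr2 and Acvr2a, differed little between the fractions. Bmpr2, the BMP type II receptor gene (ENSMUSG00000067336, chromosome 1, 59763400 to 59879014, plus strand), reached 290.1, 327.1, 316.9 and 281.6 CPM in IP and 338.2, 355.1, 348.5 and 333.3 CPM in input. The IP libraries lay just below the input libraries, with a log2 fold change of -0.18 ± 0.06. With length and GC offsets its sign turned, to 0.22. Its longest coding transcript, of 12899 bases, is the longest in the set. Acvr2a encodes a type II receptor for activins that also takes BMPs (ENSMUSG00000052155, chromosome 2, 48814109 to 48903269, plus strand). It reached 28.5, 32.6, 34.6 and 31.7 CPM in IP and 29.4, 28.4, 32.8 and 25.8 CPM in input. The ranges overlapped, and the log2 fold change of 0.13 ± 0.10 stood at 0.48 with length and GC offsets and at -0.0044 with upper quartile factors. The last bases of Acvr2a overlap Orc4 on the opposite strand, which stood at 17.5 to 27.6 CPM in IP and 21.4 to 29.6 CPM in input.

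Acvr2b and Tgfbr2 were the scarce type II receptor genes. Acvr2b encodes the other activin type II receptor (ENSMUSG00000061393, chromosome 9, 119402118 to 119434995, plus strand). It had 2.44, 2.36, 1.93 and 1.48 CPM in IP and 2.20, 1.25, 1.49 and 1.51 CPM in input, ranges that overlapped, with a log2 fold change of 0.35 ± 0.36. The antisense gene Gm47320, which overlaps it, is not analysed here. Tgfbr2, the gene of the type II receptor that binds TGF-beta (ENSMUSG00000032440, chromosome 9, 116084293 to 116175360, minus strand), had 0.301, 0.889, 0.967 and 0.377 CPM in IP and 2.46, 3.52, 3.40 and 3.72 CPM in input. These rest on 17, 47, 67 and 15 counts in IP and on 135, 261, 146 and 160 counts in input. All IP libraries were low, replicates 1 and 4 below the other IP libraries, and the log2 fold change was -2.36 ± 0.46. Without IP replicate 3, where Tgfbr2 and the summed endothelial and mural markers were both highest among the IP libraries, it was -2.64. The part of those cells in the value was not tested.

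**Figure D2:**
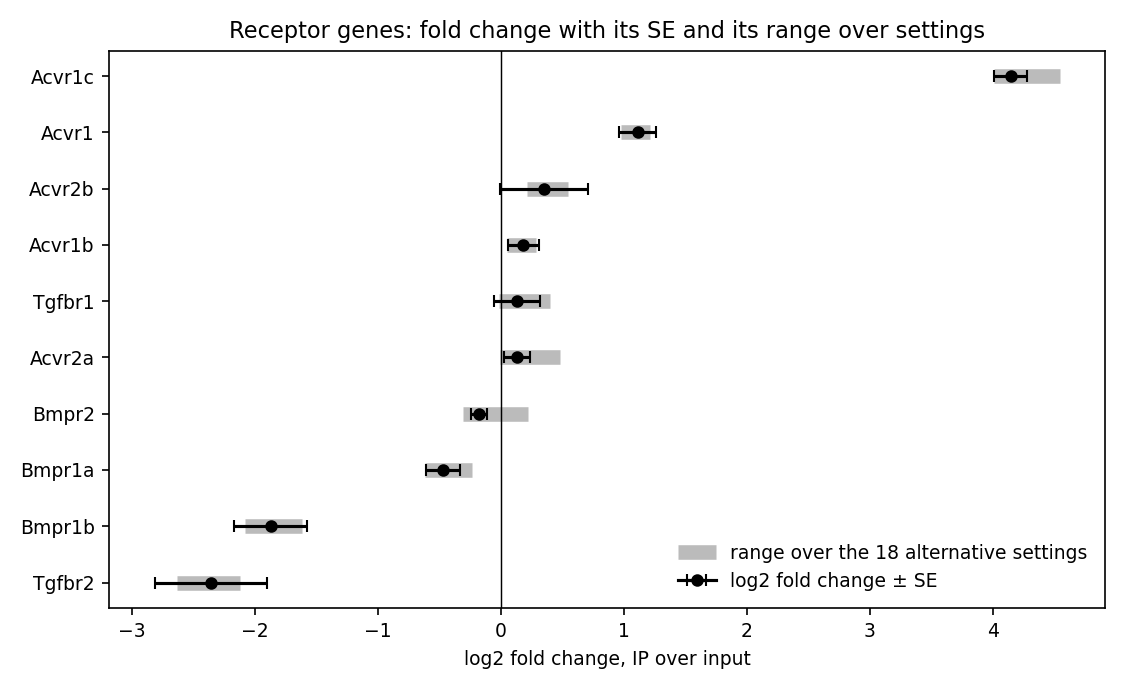
Log2 fold change of IP over input for the 10 receptor genes (horizontal axis), with dots and bars for the value and its SE and grey bands for the range over 18 alternative settings. Acvr1c at 4.15 and Acvr1 at 1.11 lie right of 0 throughout, Bmpr1a, Bmpr1b and Tgfbr2 lie left of 0 throughout, and the bands of Bmpr2, Acvr2a and Tgfbr1 cross 0.

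Spread between libraries was larger in IP for 7 genes and larger in input for Acvr1, Acvr2a and Acvr2b. The coefficient of variation was 42.8% in IP and 6.20% in input for Bmpr1b, and 54.1% in IP and 17.1% in input for Tgfbr2. It was 25.9% in IP and 4.90% in input for Tgfbr1, and 22.9% in IP and 2.89% in input for Bmpr1a. Acvr1c had 15.8% in IP and 13.0% in input, Bmpr2 7.09% in IP and 2.86% in input, and Acvr1b 18.9% in IP and 3.30% in input. Acvr1 had 9.73% in IP and 14.6% in input, Acvr2a 8.07% in IP and 9.86% in input, and Acvr2b 21.5% in IP and 25.3% in input. IP replicate 1 was the lowest IP library for 5 genes, Acvr2a, Bmpr1a, Bmpr1b, Tgfbr1 and Tgfbr2. IP replicate 3 was the highest for 4 genes, Acvr1b, Acvr2a, Bmpr1a and Tgfbr2.

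The order of levels was compared per length, as CPM per kb of the longest coding transcript. In IP, Bmpr2 with 23.6 ± 1.67 and Acvr1c with 23.2 ± 3.67 CPM per kb (SD) led, and their libraries overlapped. Acvr1b followed with 10.2 ± 1.92 CPM per kb, then Bmpr1a with 7.12 ± 1.63, Acvr1 with 5.74 ± 0.56 and Acvr2a with 5.60 ± 0.45. Neighbours among these 4 overlapped, while all of them lay below Acvr1c. Tgfbr1 with 2.40 ± 0.62 lay below them. Bmpr1b with 0.834 ± 0.357 and Acvr2b with 0.647 ± 0.139 overlapped, and Tgfbr2 was last with 0.0783 ± 0.0424 CPM per kb. In input, Bmpr2 led with 26.7 ± 0.76 CPM per kb, ahead of Bmpr1a with 9.88 ± 0.29 and Acvr1b with 8.98 ± 0.30, and Acvr1c stood at 1.31 ± 0.17 CPM per kb at rank 8. Acvr2a with 5.12 ± 0.50, Bmpr1b with 3.05 ± 0.19, Acvr1 with 2.65 ± 0.39 and Tgfbr1 with 2.19 ± 0.11 lay between, Acvr1 overlapping both of its neighbours. Acvr2b with 0.509 ± 0.129 and Tgfbr2 with 0.405 ± 0.069 came last and overlapped. The length used matters for Acvr1c and Bmpr1a, and so does the order. With the mean length of a gene's coding transcripts, Acvr1c had 64.0 ± 10.1 CPM per kb in IP, above Bmpr2 without overlap, and rank 7 in input. Bmpr1a then had 18.3 ± 4.18 CPM per kb in IP, above Acvr1b without overlap and overlapping Bmpr2, and 25.3 ± 0.73 CPM per kb in input, where it overlapped Bmpr2 at the top.

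**Figure D3:**
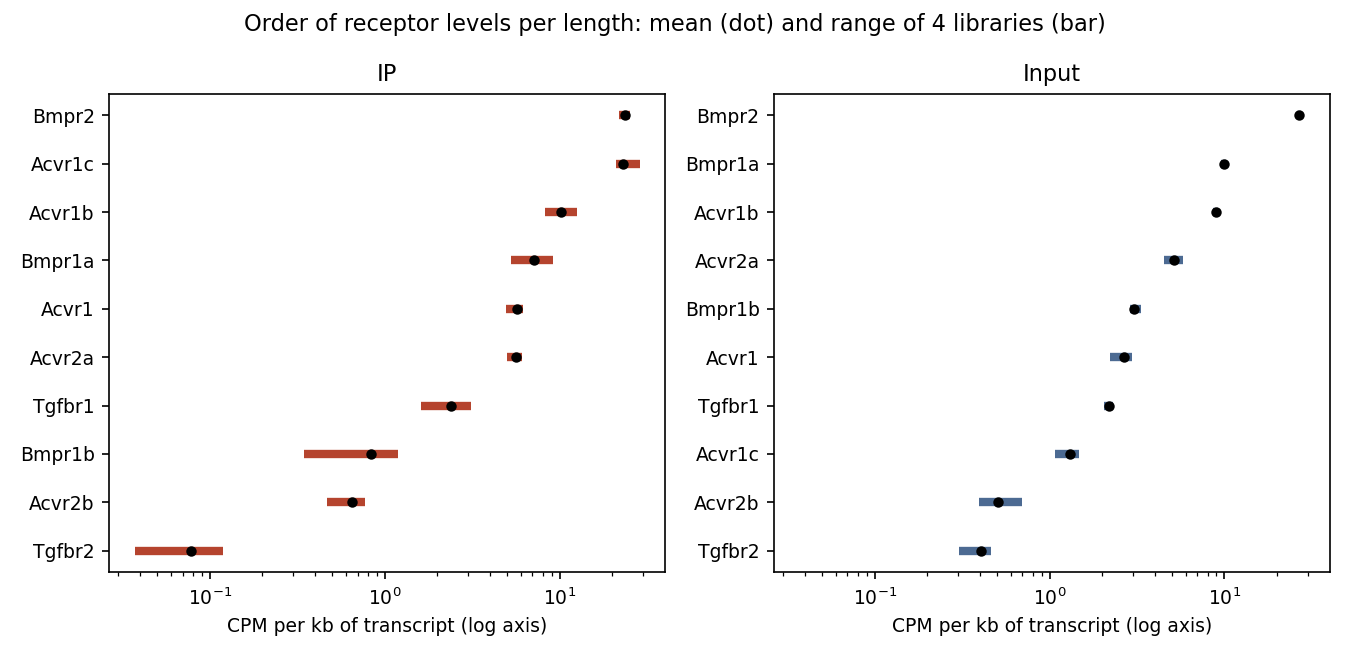
Level of the receptor genes in CPM per kb of the longest coding transcript (log axis), ordered within IP (left) and Input (right); dots are means and bars the range of 4 libraries. Acvr1c lies beside Bmpr2 at the top in IP, at 23.2 CPM per kb, and near the bottom in input, at 1.31 CPM per kb.

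Summed per length, the 6 type I receptor genes came to 49.5 ± 4.45 CPM per kb in IP and 28.1 ± 0.95 CPM per kb in input, with no overlap. The difference of this sum rests on Acvr1c, with 23.2 CPM per kb in IP and 1.31 in input. No rise of the other type I receptor genes together is read from it. The 4 type II receptor genes came to 29.9 ± 2.08 in IP and 32.7 ± 1.06 in input, ranges that overlapped. Acvr1c made up 48.6%, 43.7%, 41.4% and 53.7% of the type I sum in IP replicates 1 to 4, and 4.83%, 5.26%, 3.81% and 4.72% in Input replicates 1 to 4. In all 4 IP libraries it was the leading type I receptor gene. The mean shares were 46.9% ± 5.44 in IP and 4.65% ± 0.61 in input (SD), and with the mean transcript length 60.3% in IP and 7.14% in input. The share of Bmpr1a was 14.3% ± 2.58 in IP and 35.2% ± 1.06 in input, and that of Acvr1b 20.7% ± 3.71 in IP and 32.0% ± 0.40 in input. With the mean transcript length, Bmpr1a took 17.2% in IP and 50.2% in input, and Acvr1b 9.69% in IP and 17.8% in input. With the longest transcript, Acvr1 took 11.7% in IP and 9.43% in input, Tgfbr1 4.84% in IP and 7.81% in input, and Bmpr1b 1.65% in IP and 10.9% in input. The type II sum was led by Bmpr2 and then Acvr2a in both fractions. For the shares of Bmpr2, Acvr2a and Tgfbr2, the libraries of the fractions did not overlap. Bmpr2 took 78.8% ± 0.67 in IP and 81.6% ± 1.14 in input, and Acvr2a 18.7% in IP and 15.6% in input. Acvr2b took 2.17% in IP and 1.56% in input, and Tgfbr2 0.256% in IP and 1.24% in input. Shares of a sum are tied to each other, so a larger share of Acvr1c lowers the others.

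**Figure D4:**
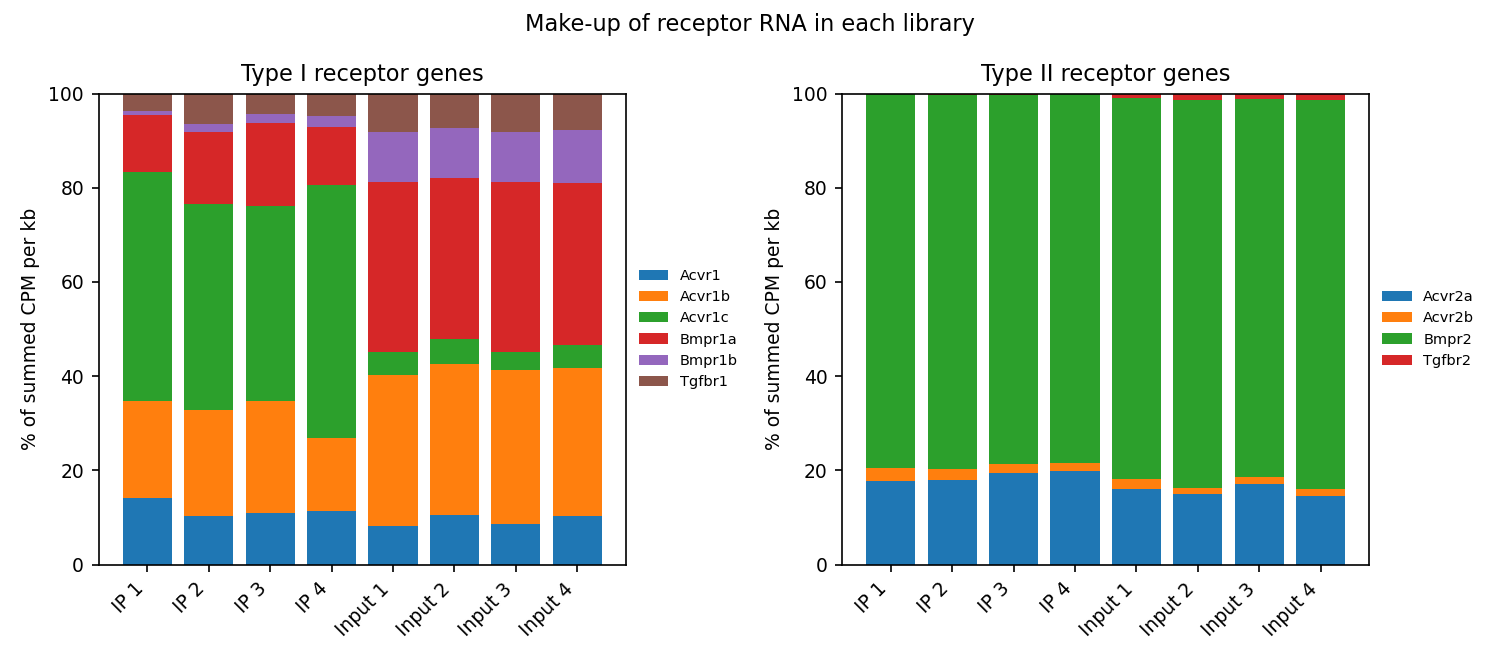
Share of each gene in the summed CPM per kb of type I (left) and type II (right) receptor genes, in percent (vertical axis, from 0), for the 4 IP libraries followed by the 4 Input libraries. Acvr1c takes 41.4% to 53.7% of the type I sum in IP and 3.81% to 5.26% in input, while Bmpr2 takes most of the type II sum in all 8 libraries.

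The genes whose profile over the 8 libraries lay nearest to that of Acvr1c were Npy2r, a neuropeptide Y receptor gene, Gpc4, a glypican gene, Nr5a2, a nuclear receptor gene, and the transcription factor genes Tbx3 and Otp. Profiles were log2 CPM centred on each gene's mean, compared by Euclidean distance, and genes under a mean of 10 CPM were left out. The distances were 0.52, 0.56, 0.58, 0.72 and 0.78, in that order. Npy2r stood at 139 ± 13.1 CPM in IP and 7.68 ± 0.70 CPM in input, and Gpc4 at 69.2 ± 12.0 CPM in IP and 4.16 ± 0.39 CPM in input. Of the other receptor genes, Acvr1 was the nearest to Acvr1c, at 4.31. The closest pair within the set was Acvr1b and Acvr2a, at 0.44, and Bmpr1b was nearest to Tgfbr2, at 1.55. The distance takes in both the difference between the fractions and the spread within them. The 5 nearest genes had log2 fold changes of 3.90 to 4.41, near the 4.15 of Acvr1c. Their nearness thus mainly restates the contrast known when the set was proposed. Tbx3 and Otp are also among the AgRP neuron markers summed above.

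The remaining genes of the pathway were read from 6 lists with 99 genes, of which 79 could be tested. The test was edgeR's quasi-likelihood test with Benjamini-Hochberg adjustment over all genes, a gene being called at an adjusted p under 0.05, and it gives every adjusted p below. Calls were made for 12 genes as higher in IP and for 20 as lower, while 47 were not called. Over all 17000 genes, 45.4% were called, 24.5% as higher and 20.9% as lower. These are 4171 and 3545 genes, a split that turned to 3342 higher and 4384 lower with upper quartile factors. The count of each list below stands beside these shares, and nothing is read from a count alone. The other 20 companion genes did not pass the filter, with at most 30 counts in a library. Among them was Fst, the gene of the activin-binding protein follistatin. In the lists, Ccn2 and Hjv stand under their older symbols Ctgf and Hfe2.

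Among the genes of the ligands, Bmp3 was higher in IP and several other BMP genes were lower. Of 19 tested, 1 was higher, 5 were lower and 13 were not called, with a median log2 fold change of -0.31. Bmp3, which encodes a BMP that can oppose other BMPs, stood at 28.2, 39.7, 24.1 and 31.9 CPM in IP and at 6.64, 6.85, 7.43 and 5.87 CPM in input. Every IP library was above every input library, with a log2 fold change of 2.21 ± 0.17 and an adjusted p of 1.14e-06 in edgeR. Bmp2, Bmp5 and Bmp7, genes of activating BMPs, were lower, with log2 fold changes of -2.30 ± 0.57, -2.95 ± 0.74 and -1.84 ± 0.49 (adjusted p = 0.00647, 0.00682 and 0.0101 in edgeR). Bmp7 was the most abundant of these, at 2.39 CPM in IP and 8.54 CPM in input. Bmp5 rests on 1, 10, 7 and 3 counts in IP and 31, 47, 42 and 37 in input. Bmp2 had 17, 56, 23 and 7 counts in IP and 127, 151, 104 and 106 in input. The activin subunit gene Inhbb and Gdf10, named after their values were seen, were lower too (adjusted p = 0.0279 and 0.0446 in edgeR). Inhbb had 1, 7, 43 and 6 counts in IP and 74, 97, 59 and 55 counts in input. The number of lower ligand genes was 3 without Input replicate 1, 2, 3 or 4 or IP replicate 2, since neither Inhbb nor Gdf10 passed, and 2 were higher without Input replicate 1 or IP replicate 1. Inhba, which encodes the subunit of activin A, had 1.98 CPM in IP and 2.33 CPM in input, was named after its values were seen and was not called (adjusted p = 0.740 in edgeR). Nodal, also named after its values were seen, had 28, 32, 110 and 20 counts in IP and 23, 15, 2 and 2 in input. Its log2 fold change was 2.13 ± 0.82, and it was not called (adjusted p = 0.0552 in edgeR).

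The remaining receptors and co-receptors split. Of 10 tested, 2 were higher, 2 were lower and 6 were not called, and the median log2 fold change was -1.08. Tgfbr3 encodes betaglycan, a co-receptor that presents TGF-beta and binds inhibin. It stood at 26.3, 25.6, 26.7 and 29.5 CPM in IP and at 7.32, 9.04, 9.96 and 9.26 CPM in input. The fractions were far apart, with a log2 fold change of 1.60 ± 0.13 and an adjusted p of 1.90e-06 in edgeR. Bambi, the gene of a pseudoreceptor without a kinase that dampens signalling, stood at 4.18, 5.05, 6.33 and 3.80 CPM in IP and at 1.27, 1.20, 1.02 and 1.28 CPM in input, a change of 2.02 ± 0.29 (adjusted p = 1.52e-04 in edgeR). Rgma, the gene of a BMP co-receptor of the repulsive guidance family, was lower, at 15.0 ± 2.58 CPM in IP and 40.3 ± 0.81 CPM in input, a change of -1.42 ± 0.12. Acvrl1, a type I receptor gene typical of endothelium, was also lower, on 1, 0, 4 and 0 counts in IP and 28, 15, 14 and 10 counts in input. Rgmb had -0.20 ± 0.16, Eng -1.04 ± 0.77, Tdgf1 -1.13 ± 0.75, Hfe2 -2.03 ± 0.82, Tgfbr3l 0.61 ± 0.82 and Amhr2 -2.59 ± 1.22, and none of these 6 was called. With other tools Hfe2 was called lower (adjusted p = 0.0290 in DESeq2, 0.0135 in limma-voom), as it was in edgeR with upper quartile factors (0.0499), and Amhr2 was called lower in limma-voom (0.00853). Without IP replicate 3, Amhr2 and Tdgf1 were called lower and 4 of the list were lower. Eng passed as lower without IP replicate 2 (-2.19, adjusted p = 0.0200 in edgeR), and Hfe2 without IP replicate 4 (-2.82, adjusted p = 0.0190 in edgeR).

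Extracellular modulators were higher in IP for 5 of 20 tested genes and lower for 2, with 13 not called and a median of 0.10. Over all genes tested, 24.5% were called higher and 20.9% lower. Crim1, the gene of a transmembrane protein with BMP-binding repeats, reached 142 ± 13.9 CPM in IP and 44.3 ± 5.67 CPM in input, a change of 1.68 ± 0.11 (adjusted p = 3.11e-07 in edgeR). Vwc2l and Fstl1, both genes of secreted proteins that act on BMP or TGF-beta signalling, rose by 1.42 ± 0.12 and 1.43 ± 0.12. Vwc2l averaged 63.1 CPM in IP and 23.6 CPM in input, and Fstl1 47.3 CPM in IP and 17.5 CPM in input. Vwc2, the paralogue of Vwc2l, was lower with -1.63 ± 0.22, and Nbl1, the gene of a BMP antagonist, with -1.78 ± 0.34. Twsg1 and Kcp, named after their values were seen, were higher by 1.17 ± 0.14 and 1.35 ± 0.50. Kcp was called at an adjusted p of 0.0471 in edgeR, and that call was lost in 12 of 18 alternative settings, among them any 1 of the 4 Input libraries or IP replicate 3 or 4 left out, RLE factors (adjusted p = 0.0519 in edgeR) and limma-voom (0.147). Without IP replicate 3 it stood at 0.94, and 7 genes of the list were higher.

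All 8 SMAD genes were tested, and 1 was higher, 4 were lower and 3 were not called, with a median of -0.32. Of the pair that acts below activin and TGF-beta receptors, Smad2 was at 33.8 CPM in IP and 34.8 CPM in input, with -0.04 ± 0.08, while Smad3 was lower. Smad3 stood at 5.06, 5.24, 2.14 and 4.00 CPM in IP and at 12.9, 15.4, 10.8 and 12.2 CPM in input, a change of -1.64 ± 0.27 (adjusted p = 4.17e-04 in edgeR). Of those below BMP receptors, Smad9 was higher, at 30.3 CPM in IP and 22.1 CPM in input (0.46 ± 0.10), Smad5 had 0.18 ± 0.08 and was not called, and Smad1 was called lower at -0.33 ± 0.12 (adjusted p = 0.0398 in edgeR). The shared partner gene Smad4 was lower with -0.58 ± 0.17, with 17.2 CPM in IP and 25.8 CPM in input. Of the inhibitory SMAD genes, Smad6 had 1, 5, 1 and 0 counts in IP and 17, 32, 20 and 11 counts in input and was lower, and Smad7, at 9.33 CPM in IP and 11.5 CPM in input, had -0.30 ± 0.16 and was not called. The call of Smad1 was lost without any 1 of the other libraries than IP replicate 3, with adjusted p from 0.0584 to 0.138 in edgeR. Smad4 missed the threshold without Input replicate 2 (-0.54, adjusted p = 0.0520 in edgeR), and with Smad1 also lost this left 2 lower SMAD genes. Smad7 was called lower without IP replicate 3 (-0.41) and with upper quartile factors (-0.44), and without IP replicate 4, Smad5 was called higher (0.22).

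Intracellular regulators changed in both directions, with 2 of 11 tested genes higher, 2 lower and 7 not called and a median of 0.02. Fkbp1a encodes the immunophilin that binds type I receptors and keeps them inactive without ligand. It reached 392.8, 420.2, 411.4 and 446.4 CPM in IP and 219.6, 221.7, 224.9 and 228.9 CPM in input, a change of 0.90 ± 0.06 (adjusted p = 3.96e-07 in edgeR). Zfyve9 encodes the anchor protein that brings Smad2 and Smad3 to the receptor, and it was lower, at 28.2, 29.9, 40.5 and 29.4 CPM in IP and 70.0, 80.4, 72.0 and 63.3 CPM in input. Its change was -1.16 ± 0.13. The corepressor gene Tgif1 was lower with -2.65 ± 0.64 at 0.202 CPM in IP and 1.26 CPM in input. Pmepa1, a feedback inhibitor gene, was higher by 0.34 ± 0.11, a call lost without Input replicate 1 or 2 (adjusted p = 0.0661 and 0.0746 in edgeR), which left 1 higher gene.

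Of 11 tested genes that are often used as readouts of this signalling, 1 was higher, 5 were lower and 5 were not called, and the median was -1.19. Tgfbi, the gene of an extracellular matrix protein known to respond to TGF-beta, stood at 22.6, 26.7, 16.9 and 37.4 CPM in IP and at 1.09, 0.863, 1.28 and 1.47 CPM in input, a change of 4.47 ± 0.28 (adjusted p = 2.95e-07 in edgeR). The BMP-responsive genes Id2 and Id4 were lower with -1.71 ± 0.20 and -1.07 ± 0.16, and Hey1 with -1.37 ± 0.19. Id2 averaged 13.0 CPM in IP and 42.5 CPM in input. Id3 and Cdkn1a, named after their values were seen, were lower with -1.26 ± 0.25 and -1.58 ± 0.32. Id and Hey1 transcripts are also known from glia, whose markers were lower in IP as given above, and the part of those cells was not tested. A level in IP relative to input is no measure of signalling.

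**Figure D5:**
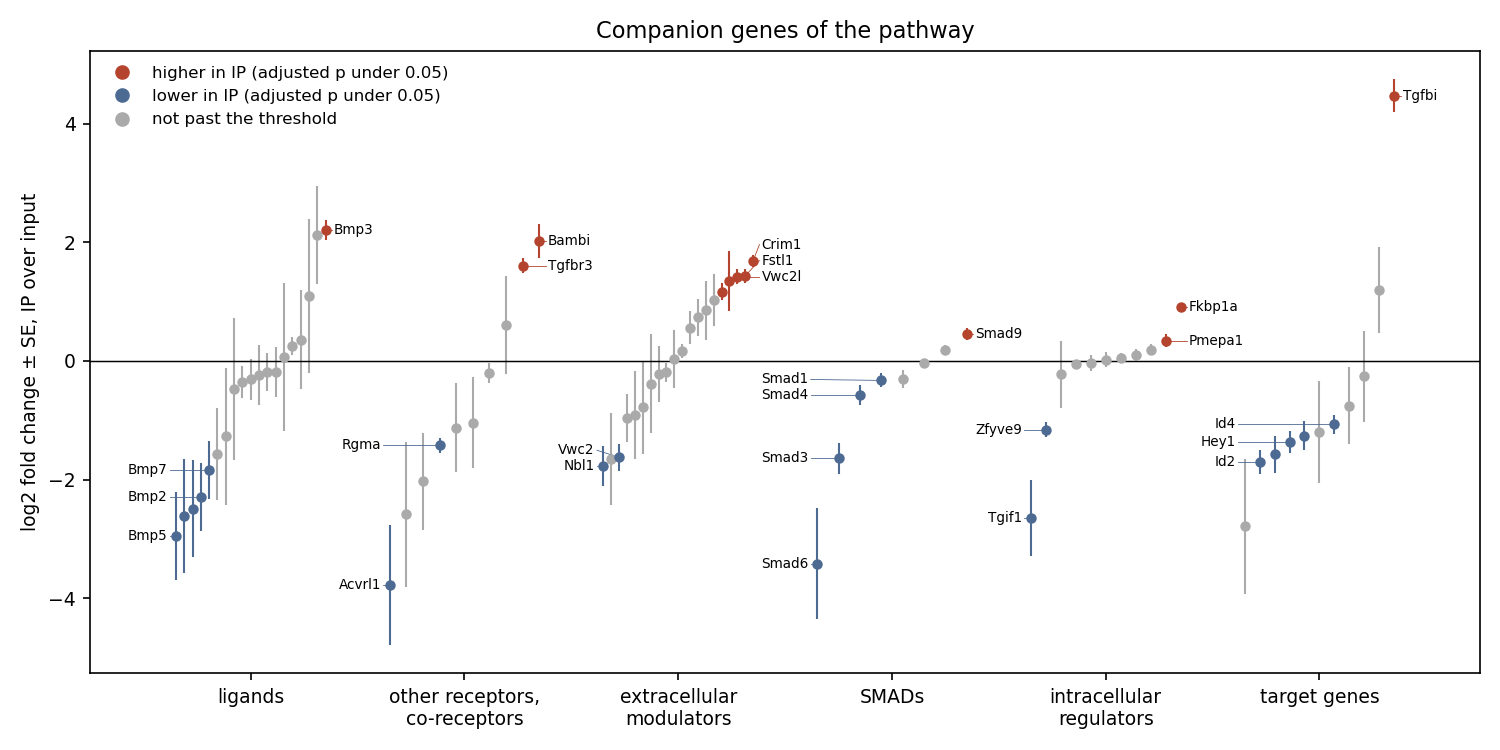
Log2 fold change of IP over input with its SE (vertical axis) for the 79 tested companion genes in 6 lists (horizontal axis), ordered by value within a list. Red dots are the 12 genes called higher and blue dots the 20 called lower; Tgfbi at 4.47 is the highest and Acvrl1 at -3.78 the lowest of the genes called.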

How the data were processed

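RNA of 4 IP and 4 Input libraries, each made from 3 pooled mice per the labels, was sequenced. Whether IP and Input libraries of 1 number came from the same mice is not given in the sources used here. The authors deposited estimated counts for each gene, made with Salmon 0.14.1 and the build GRCm38.p6 per the submitters' processing notes. For annotation release, trimming and strand nothing is given in the sources used here. Salmon shares ambiguous reads between transcripts by a model, so genes with similar copies or overlaps are uncertain. Of the values, 15.3% to 19.2% per library were not whole (tolerance 1e-06).

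Counts were rounded and fitted with edgeR 4.0.16 (R 4.3.3): filterByExpr with a minimum count of 10, TMM factors, quasi-likelihood test, no covariate, Benjamini-Hochberg adjustment over 17000 genes. The SE is the absolute log2 fold change over the square root of F. CPM use TMM-scaled totals. Lengths, GC content and positions came from GENCODE M21, which held 98.8% of the identifiers, and promoters from RefSeq. Alternatives were RLE and upper quartile factors, library totals alone, no filter, a filter of 1 CPM in 4 libraries, DESeq2 1.42.0, limma-voom (limma 3.58.1), a replicate block, length and GC offsets from a smooth fit (mgcv 1.9.3), and each library left out. No 2 libraries held the same values, and replicates differed by more than sampling noise, with a chi-square per degree of freedom of 18.5 or more, the highest in pairs with IP replicate 3.

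Named are the 10 members, Mff and Agrp, all genes of the lists of other receptors and of SMADs, the 3 genes with the smallest p in each direction of each other list, and the 5 genes nearest to Acvr1c. Others are marked as named after their values were seen. Members and lists were chosen with earlier results of these data known.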

Additional observations from a re-analysis of the deposited data

Results flagged for a closer look

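A level stood apart in its group where the highest or lowest of 4 libraries lay further from the rest than Dixon's test at the 95% level allows. This held for 8 of 118 groups checked, while chance gives about 1 in 20. Among the receptor genes it held for Acvr1c, with 262.69 CPM in IP replicate 4 and 194 to 199 CPM in the other IP libraries. Zfyve9 had 40.495 CPM in IP replicate 3, against 28.2 to 29.9 CPM in the other IP libraries. Id2 had 20.053 CPM in IP replicate 3, against 10.4 to 11.0 CPM in the other IP libraries. Amhr2 had 0.2164 CPM in IP replicate 3 and 0 in the other IP libraries, and 0.23281 CPM in Input replicate 3, with 0.396 to 0.418 CPM in the other inputs. Cfc1 had 0.053081 CPM in IP replicate 1 and 0 in the other IP libraries, which is 3 counts. With all other libraries at 0, any count is flagged, so the rate of 1 in 20 does not hold for Amhr2 and Cfc1 in IP. Rgma had 39.115 CPM in Input replicate 1 and 40.7 to 40.8 CPM in the other inputs, a small step in a narrow group. Vwc2l had 20.31 CPM in Input replicate 2 and 24.2 to 24.9 CPM in the other inputs.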

How the results depend on the processing

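Over 18 alternative settings the log2 fold change of Acvr1c ran from 4.01 to 4.54 and that of Acvr1 from 0.98 to 1.22. Tgfbr2 ran from -2.64 to -2.12, Bmpr1b from -2.08 to -1.61 and Bmpr1a from -0.62 to -0.23. Acvr1b (0.05 to 0.29) and Acvr2b (0.22 to 0.55) stayed above 0 in these settings. Upper quartile factors shifted the median of all genes by -0.13 and library totals alone by 0.10, so small values read relative to that shift. Bmpr2 stood at 0.22 with length and GC offsets and at 0.21 with the replicate block added to them. The rank of Acvr1c per length was 1 in IP and 7 in input with the mean transcript length. Replicate numbers were not taken as pairs, by a cut-off of 0.1 for the correlation of deviations. Same-numbered libraries had 0.07, 0.048, 0.058 and 0.084, whereas pairs of unlike number had -0.038 to -0.002. Each library thus correlated best with its own number. The cut-off does not exclude pairing, which the main fit leaves out. With the replicate block, 3878 genes were called higher and 3714 lower, no count of a list moved by over 1.5 times, and Kcp lost its call (adjusted p = 0.107 in edgeR), as it did in 12 of 18 settings in all.

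Counts of called companions moved as follows. Ligands called higher were 2 with library totals alone, DESeq2 or limma-voom. Ligands called lower were 10 with no filter and 3 with the filter of 1 CPM in 4 libraries, where fewer genes are tested. Other receptors called lower were 1 with that filter and 4 with limma-voom, and modulators called lower were 4 with limma-voom. SMADs called higher were 2 with library totals alone or with length and GC offsets, with or without the replicate block. Intracellular regulators called higher were 1 with upper quartile factors or with offsets and the replicate block. Smad1 also lost its call with library totals alone, no filter and offsets. Leaving out 1 library gave 1 to 2 higher and 3 to 6 lower ligands, 2 to 4 lower other receptors, 1 to 2 higher and 2 to 5 lower SMADs, and 1 to 2 higher regulators. The cause of these moves was not tested. Low counts in IP, 15 to 67 a library for Tgfbr2, limit precision.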
